A study of Homo sapiens with 12 samples.

Results

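H3K27ac regions shared by BxPC3 and Panc327 cells and lacking in SUIT2 cells numbered 2252 among 58994 regions, 3.82% of all regions. They were chosen from the peak lists themselves. Peaks of the 6 H3K27ac lists on chromosomes 1 to 22 and X that overlapped by 1 bp or more were joined into regions, and a region was kept when it held a peak in both BxPC3 lists and both Panc327 lists and none in either SUIT2 list. Presence and absence in the lists are therefore the selection and not a finding, and the strengths given below describe the regions without testing them. BxPC3, Panc327 and SUIT2 are human pancreatic cancer cell lines. BxPC3 was derived from a primary pancreatic adenocarcinoma and SUIT2 from a liver metastasis, and of Panc327 only the name and tumour type are given here. All cells were untreated and kept in standard culture, and every line had 2 H3K27ac ChIP libraries and 2 input libraries, 12 in all. The labels do not say whether replicates were separate cultures, so their spread may be technical.

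H3K27ac is the acetylation of lysine 27 of histone H3, placed mainly by the acetyltransferases p300 and CBP. It marks active promoters and active distal enhancers, and the set of enhancers that carries it differs between cell types more than the set of promoters does. A peak list records where the mark passed a calling threshold, not the activity of a gene. All positions are on hg19, the build named in the submitters' processing notes. The gene and promoter tables at hand are on GRCh38.p14, so regions are named by position, no gene, exon, intron or promoter is assigned to them, and no sequence is shown. For the same reason the labelled tissue of the lines was not checked against marker genes.

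The libraries held between 27776 peaks (Panc327 replicate 1) and 38335 peaks (BxPC3 replicate 2). As a stand-in for depth, the genome-wide background of each list was used, the number of reads expected over a base. It was taken from the lowest backgrounds solved at the called peaks. It also depends on the length that the peak caller gave to each read, which is not known here. In unscaled reads the BxPC3 replicates had 2.61 and 3.64, those of Panc327 1.46 and 2.85, and those of SUIT2 3.29 and 3.61. Panc327 replicate 1 had the lowest of the 6, and BxPC3 replicate 2 and both SUIT2 libraries were the highest. The deposited BxPC3 values were fitted by pile-ups scaled by 0.752 and 0.652, and read numbers for BxPC3 are given unscaled. At the genome-wide background a SUIT2 peak needed 20 reads over a base in replicate 1 and 21 in replicate 2, and 29 and 30 where the local background was 2 times higher. A weaker SUIT2 summit would not be listed, so absence from the list is not absence of the mark.

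Of the 15168 regions called in both libraries of both BxPC3 and Panc327, the 2252 without SUIT2 peaks made up 14.8%. Regions of BxPC3 and SUIT2 without Panc327 peaks were 4.18% of all regions, and regions of Panc327 and SUIT2 without BxPC3 peaks were 1.17%. Of the regions called in both lines that held them, the share was 14.7% for the former (2468 of 16806) and 5.09% for the latter (692 of 13603). The genome-wide background differed between the libraries, as above, and the part of depth in these shares was not tested. Without Panc327 replicate 1, 3962 regions met the rule.

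The SUIT2-lacking regions were of middling strength in the lines that held them. Strength was ranked within each list by the −log10 q of the best peak in the region, as a percentile of all peaks in that list. The median region stood at percentile 50.5 in BxPC3 replicate 1, 56.6 in BxPC3 replicate 2, 42.7 in Panc327 replicate 1 and 51.5 in Panc327 replicate 2. Regions held by all 6 libraries stood higher in the same 4 lists, with medians of 79.4, 81.8, 75.6 and 75.2. Regions of BxPC3 and SUIT2 without Panc327 peaks had medians of 38.8 and 47.0 in the BxPC3 replicates. Regions of Panc327 and SUIT2 without BxPC3 peaks had 50.3 and 41.4 in the Panc327 replicates. A place below the regions held by all 6 libraries was thus not particular to the SUIT2-lacking regions. The median summit carried 70 and 99 reads in the BxPC3 replicates and 54 and 57 reads in the Panc327 replicates. A call at the genome-wide background needed 22, 27, 14 and 19 reads, a limit that every member passed through the selection. Their median fold over background, the authors' own value for each peak, was 14.6 and 16.6 in BxPC3 and 18.2 and 11.5 in Panc327. Folds and percentiles describe a peak within its own list, and folds are given side by side below without comparing lists.

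**Figure D1:**
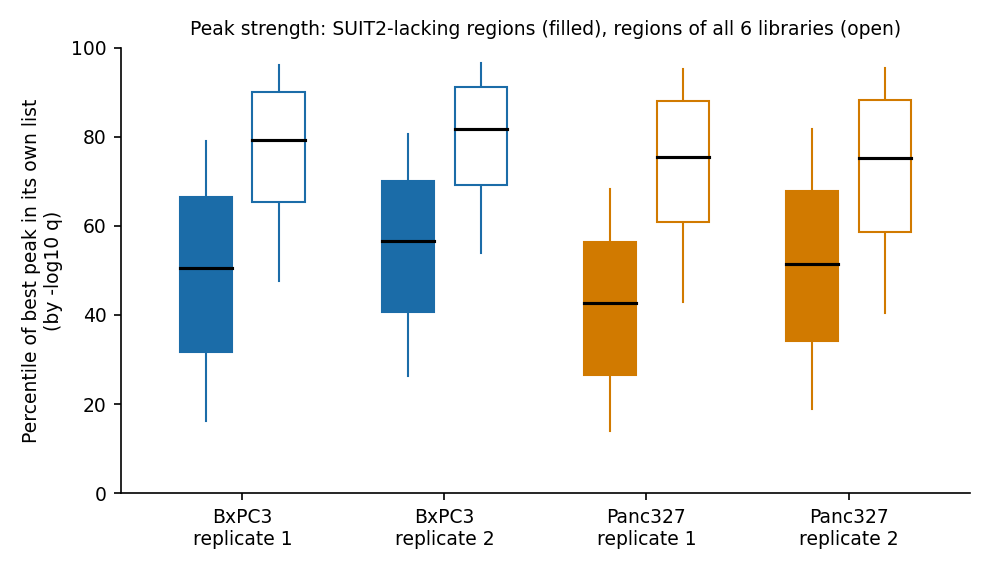
Percentile of the best peak of a region within its own list, by −log10 q, for the 2252 SUIT2-lacking regions (filled boxes) and the 12721 regions held by all 6 libraries (open boxes) in the BxPC3 and Panc327 libraries. Boxes span the 25th to 75th percentile of regions, lines the 10th to 90th, and the black bar is the median; every filled median lies below the open one beside it.

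Strong members were few. The top 10% of a list held 74 of them in BxPC3 replicate 1, 84 in BxPC3 replicate 2, 26 in Panc327 replicate 1 and 105 in Panc327 replicate 2, between 1.15 and 4.66% of the SUIT2-lacking regions. Of the Panc327-lacking regions, 0.770 and 0.810% stood in the top 10% of the BxPC3 lists. Of the BxPC3-lacking regions, 2.17 and 2.31% stood in the top 10% of the Panc327 lists. Only 7 SUIT2-lacking regions stood in the top 10% of all 4 lists, 0.311% of them, against 8.10% of the regions held by all 6 libraries (1031 of 12721). In the upper 50% of all 4 lists there were 392 (17.4%), against 73.6% of the regions held by all 6 libraries (9363 of 12721). Another 413 members (18.3%) stood in the upper 50% of none.

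The strongest SUIT2-lacking region, ranked by its lowest percentile in the 4 lists, lay on chromosome 14 from 61744138 to 61749199. Its fold was 67.4 in BxPC3 replicate 1, 72.9 in BxPC3 replicate 2, 84.7 in Panc327 replicate 1 and 32.0 in Panc327 replicate 2. All 4 peaks were in the top 5% of their lists, at percentiles 97.8, 97.3, 95.6 and 98.0, and the summits were carried by 298, 446, 503 and 176 reads. The 4 summits lay within 121 bp of each other. The local background at the peak was 3.39 times that of the whole genome in Panc327 replicate 1 and 1.59 times in replicate 2. In the BxPC3 replicates it was 1.19 and 1.27 times, and its part in the ranks was not tested. The BxPC3 peaks were broader, 4886 and 5062 bp, than the Panc327 peaks, 2080 and 3384 bp. The nearest SUIT2 peak was 87.8 kb away and weak, with a fold of 6.51 at percentile 10.6 of SUIT2 replicate 2.

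On chromosome 6, 41603716 to 41606716, the fold was 61.7 and 76.3 in the BxPC3 replicates and 146.1 and 30.2 in the Panc327 replicates. Both BxPC3 percentiles, 94.7 and 96.3, were above both Panc327 percentiles, 94.5 and 93.1. The nearest SUIT2 peak was a strong one 88.0 kb away, at percentile 88.7 of SUIT2 replicate 1. SUIT2 thus lacked the region but not every strong peak of its surroundings.

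The third region lay on chromosome 1, 27285485 to 27288201, with a fold of 56.7 and 82.1 in BxPC3 and 162.0 and 24.2 in Panc327. The fourth was on chromosome 16, 68676357 to 68680882, with 48.7 and 77.8 in BxPC3 and 137.9 and 29.4 in Panc327. Both BxPC3 percentiles were again above both Panc327 percentiles, with 98.9 and 98.2 against 97.7 and 92.9 on chromosome 1 and 94.0 and 96.6 against 93.8 and 92.2 on chromosome 16. Their nearest SUIT2 peaks were 28.4 and 59.8 kb away.

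A region on chromosome 19, 39282659 to 39285416, was among the very strongest peaks of Panc327. It stood at percentile 99.98 of replicate 1 and 99.97 of replicate 2, with folds of 269.4 and 35.9, and at 90.9 and 91.7 in the BxPC3 replicates, with folds of 43.5 and 52.8. Both Panc327 percentiles were above both BxPC3 percentiles. The region lay in a 2 Mb window where the local background of the Panc327 replicates reached 4.37 and 4.70 times that of the whole genome (the background ratio), against 1.53 and 1.27 in BxPC3 and 1.00 in both SUIT2 libraries. The part of that background in the strength of the peak was not tested. A SUIT2 peak began only 3932 bp away.

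On chromosome 1, 220699296 to 220703867, the order of the lines was the same, with percentiles of 99.1 and 97.9 in Panc327 and 90.7 and 94.2 in BxPC3. The Panc327 background of its window was near that of the whole genome, at ratios of 1.25 and 1.19. Its folds were 52.9 and 68.0 in BxPC3 and 212.3 and 40.5 in Panc327. No SUIT2 peak was called within 159.8 kb, the longest such distance among the 10 strongest regions.

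On chromosome 1, 59036706 to 59044978, BxPC3 ranked higher, at percentiles 95.9 and 99.0 against 91.8 and 90.4 in Panc327. This region of 8273 bp was 1 peak in both BxPC3 lists and in Panc327 replicate 2 but was split into 4 peaks in Panc327 replicate 1, the library of lowest background. A strong SUIT2 peak, with a fold of 108.9 in replicate 2, lay 23.7 kb away. Another region of chromosome 19, 34310004 to 34313264, also stood higher in BxPC3 (98.7 and 93.6) than in Panc327 (89.0 and 88.5). The Panc327 background ratios of its window were 2.04 and 2.06. At its own best peaks the ratios were 1.02 and 3.38 in the BxPC3 replicates and 2.14 and 1.95 in the Panc327 replicates. The part of the background in this order was not tested.

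The remaining 2 of the 10 were on chromosome 14, 61787713 to 61790809, and on chromosome 7, 407842 to 410624. On chromosome 14 the 4 summits lay within 94 bp, and the folds were 44.2 and 54.4 in BxPC3 and 78.8 and 29.9 in Panc327. The percentiles there were 88.3 in both BxPC3 replicates and 88.6 and 94.6 in Panc327, both above those of BxPC3. On chromosome 7 the summits were spread over 864 bp, and the folds were 38.9 and 60.3 in BxPC3 and 69.0 and 18.5 in Panc327. Its percentiles overlapped between the lines, 87.7 and 91.2 in BxPC3 and 88.1 and 93.8 in Panc327. Both regions lay inside the runs described below. Of the 10 strongest regions, 5 had both BxPC3 percentiles above both Panc327 percentiles, 3 had the reverse and 2 overlapped.

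**Figure D2:**
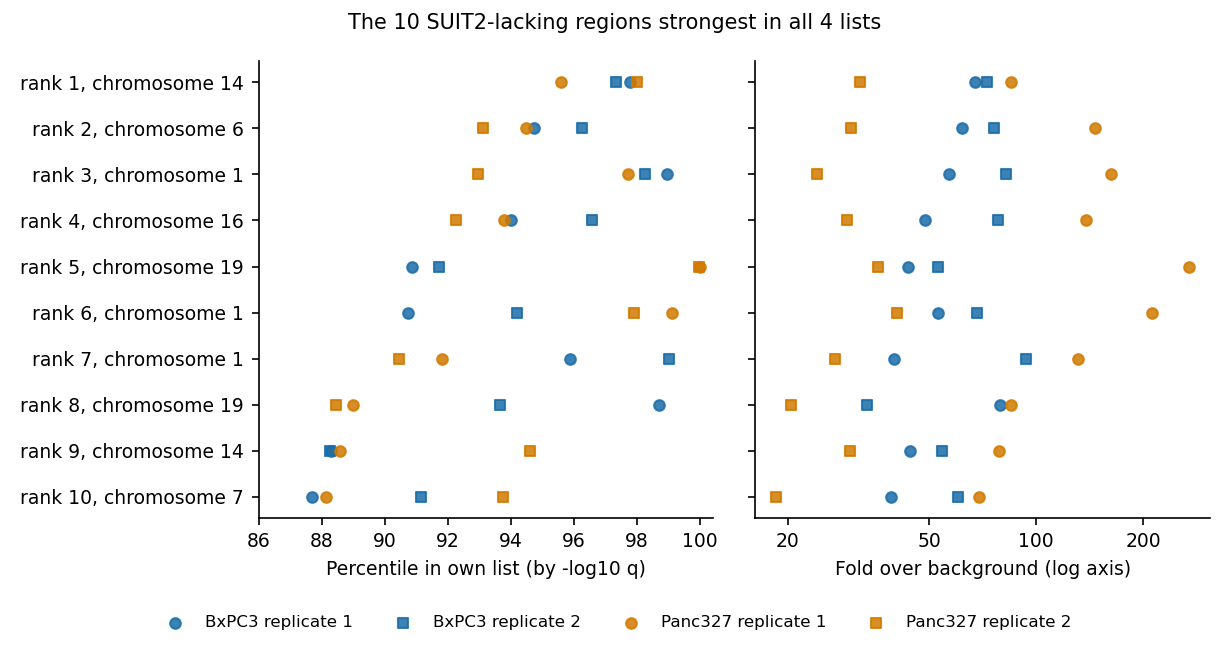
The 10 SUIT2-lacking regions with the highest minimum percentile over the 4 lists, in rank order with their chromosome; the left panel gives the percentile of each library's best peak by −log10 q and the right panel its fold over background on a log axis. Circles are replicate 1 and squares replicate 2; ranks 2, 3, 4, 7 and 8 have both BxPC3 percentiles above both of Panc327, ranks 5, 6 and 9 the reverse, and ranks 1 and 10 overlap. Folds are not on one scale across libraries.

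The broadest members were ranked by the bases that all 4 lists covered. The first, on chromosome 17 from 38640761 to 38658364, spanned 17604 bp with 6986 bp covered in all 4. It was a single peak in BxPC3 replicate 2, 2 peaks in BxPC3 replicate 1, 8 in Panc327 replicate 1 and 4 in Panc327 replicate 2. Its best peaks stood at percentiles 92.9 and 92.3 in BxPC3 and 58.5 and 70.6 in Panc327, so that both BxPC3 libraries were above both Panc327 libraries.

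The same order held in the next ones. On chromosome 16, 70726625 to 70737415, a region of 10791 bp, the percentiles were 77.8 and 81.0 in BxPC3 and 62.3 and 64.7 in Panc327. On chromosome 16, 57651077 to 57659381, they were 99.3 and 99.2 in BxPC3 and 79.1 and 92.1 in Panc327, with 1 BxPC3 peak of 7511 and 7924 bp in the replicates. The nearest SUIT2 peaks were 6155 bp from the former and 80.1 kb from the latter.

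On chromosome 1, 209600555 to 209609208, the Panc327 replicates differed more than in the other 4 of these 5 regions. Replicate 2 ranked the region at percentile 99.8, with 1 peak of 8604 bp, and replicate 1 at 74.2, while BxPC3 had 96.1 and 97.7. The background ratio at the peak was 3.05 and 3.23 in Panc327, and its part in the ranks was not tested. On chromosome 22, 38289020 to 38296250, the percentiles were 92.2 and 89.8 in BxPC3 and 65.1 and 89.7 in Panc327, and the SUIT2 list resumed 5424 bp away with a peak of fold 47.9.

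Over all 2252 regions the median width was 1967 bp, in a range of 459 to 17682 bp. Regions of at least 5 kb numbered 127 and those of at least 10 kb 11. Regions lacking in Panc327 had a median width of 1928 bp and those lacking in BxPC3 1744 bp. The 4 lists had 519 bp in common in the median SUIT2-lacking region, 30.9% of its length. In 101 regions, 4.48%, no base was covered by all 4 lists, because peaks that do not overlap each other can be joined through another peak between them.

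BxPC3 and Panc327 placed their summits within 100 bp of each other in under 50% of the members. In the 4 pairings of a BxPC3 with a Panc327 library, the median distance between summits was 115.5 to 182 bp, and 34.2 to 46.5% of the regions had both summits within 100 bp. The pairings with Panc327 replicate 2 gave the shorter distances. The BxPC3 replicates differed by a median of 48 bp and the Panc327 replicates by 152 bp. With Panc327 replicate 2, the median distance between the lines was thus shorter than that between the Panc327 replicates. In regions held by all 6 libraries the same pairings of lines had medians of 74 to 80 bp. All 4 summits fell within 200 bp in 734 SUIT2-lacking regions (32.6%) and in 52.1% of the regions held by all 6.

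Strength in one line went only loosely with strength in the other. Across the 2252 regions, which share libraries and depth and are not independent, the percentiles of BxPC3 and Panc327 libraries had a Spearman rho of 0.210 to 0.305, against 0.938 between the BxPC3 replicates and 0.475 between the Panc327 replicates. Regions held by all 6 libraries gave 0.622 to 0.630 between the lines. Both sets hold only peaks past the calling threshold of each list.

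Both BxPC3 percentiles exceeded both Panc327 percentiles in 867 members, the reverse was seen in 496, and the percentiles overlapped in 889. A lead of at least 40 points in the mean percentile was seen for BxPC3 in 157 regions and for Panc327 in 81. Percentiles are ranks in lists of different length, so these counts describe the order within lists and show no change in level. The same counts were not made for regions held by all 6 libraries. In those regions both BxPC3 median percentiles, 79.4 and 81.8, were also above both Panc327 medians, 75.6 and 75.2. Whether the lead of BxPC3 is particular to the SUIT2-lacking regions was therefore not tested.

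SUIT2 peaks were usually close to the regions that SUIT2 lacked. The median distance from a member to the nearest SUIT2 peak was 17459.5 bp, with 452 members (20.1%) within 5 kb and 526 (23.4%) more than 50 kb away. Regions lacking in Panc327 lay a median of 25239 bp from the nearest Panc327 peak and 35.6% of them were more than 50 kb away. For regions lacking in BxPC3 these values were 22492.5 bp and 31.5%. The nearest peak of the lacking line was more than 500 kb away for 17 SUIT2-lacking regions (0.755%), 149 Panc327-lacking regions (6.04%) and 16 BxPC3-lacking regions (2.31%). Regions with a peak numbered 31307 for SUIT2, 32329 for Panc327 and 35780 for BxPC3, and the part of their number and spacing in these distances was not tested.

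**Figure D3:**
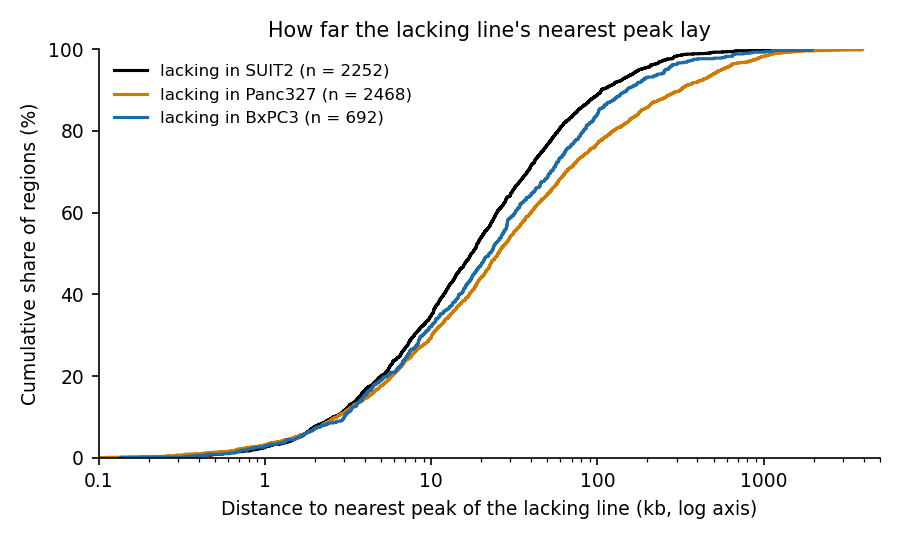
Cumulative share of regions by the distance to the nearest peak of the line that lacks them, on a log axis in kb, for regions lacking in SUIT2 (black), Panc327 (orange) and BxPC3 (blue). The black curve reaches 50% first, at 17459.5 bp, and the blue and orange curves at 22492.5 and 25239 bp.

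The nearest region with a SUIT2 peak most often held H3K27ac peaks of all lines. Nearness was taken here to the edge of the merged region, which can reach beyond the SUIT2 peak in it. It was held by all 6 libraries for 1475 members (65.5%), while such regions were 40.6% of all regions with a SUIT2 peak. It was a SUIT2-only region for 224 members (9.95%), against 24.5% of all regions with a SUIT2 peak. For Panc327-lacking regions the nearest region with a Panc327 peak was held by all 6 in 49.2%, against 39.3% of all regions with a Panc327 peak. For BxPC3-lacking regions it was 61.0%, against 35.6% of all regions with a BxPC3 peak. A share above that of all regions was thus seen in all 3 classes. None of these shares was tested.

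The most isolated members were chosen after their values were seen. On chromosome 5, 29191774 to 29193549, no SUIT2 peak was called within 2338 kb. BxPC3 ranked it at percentiles 69.9 and 83.7 and Panc327 at 16.5 and 39.3, so the lines did not overlap. On chromosome 2, 78767511 to 78769194, the distance was 1555 kb, and on chromosome 7, 70158699 to 70161510, it was 1095 kb. The chromosome 7 region was of like strength in all 4 lists, at percentiles 73.3, 73.8, 77.2 and 69.7.

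Members also occurred in runs, that is, as consecutive members with no SUIT2 peak between them. Single members made up 61.9% (1394), and 858 (38.1%) stood in 348 runs of 2 or more. Runs were not counted for the other classes of regions, so whether members cluster more than other regions was not tested. There were 38 runs of at least 4, with 180 members. The longest held 9 members on chromosome 7 from 372083 to 532551, inside 217.1 kb without a SUIT2 peak. In that stretch the BxPC3 lists called 11 and 15 peaks and the Panc327 lists 28 and 18. Panc327 thus had more separate peaks there than BxPC3 in both replicates. The Panc327 background ratios of the window were 1.78 and 1.95, and their part in the number of peaks was not tested.

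On chromosome 1, 7 members lay between 209527409 and 209609208, in 1403 kb without a SUIT2 peak, the longest such stretch among the 13 runs of 5 or more. All 7 were strong in BxPC3, from percentile 68.8 in replicate 1 and 71.1 in replicate 2 upward, with medians of 89.5 and 89.0. Panc327 was split by replicate, with percentiles of 5.93 to 74.2 in replicate 1 and 42.9 to 99.8 in replicate 2. The background ratios of the window were 1.70 and 2.05 in Panc327 and 1.00 in both SUIT2 libraries, and their part in this split was not tested. A run of 7 on the same chromosome, 44229370 to 44403769, had median percentiles of 66.4 and 70.1 in BxPC3 and 54.7 and 82.9 in Panc327.

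The strongest member of all opened a run of 6 on chromosome 14, 61744138 to 62005610, in 369.5 kb without SUIT2 peaks. BxPC3 called 24 and 26 peaks in that stretch and Panc327 8 and 12, the reverse of the order on chromosome 7. Runs of 6 were also found on chromosome 5 (150948524 to 151028527), chromosome 16 (85387159 to 85559193), chromosome 8 (49607912 to 49648477) and chromosome 9 (139457579 to 139520440). The chromosome 16 run was weak in Panc327 replicate 2, with percentiles of 0.547 to 38.8, against 28.4 to 56.8 in Panc327 replicate 1. The BxPC3 replicates had 14.6 to 81.1 and 5.10 to 83.0. The chromosome 5 run had median percentiles of 62.3 and 68.6 in BxPC3 and 46.1 and 77.5 in Panc327, so the lines overlapped. The chromosome 8 run, 6 members in 40.6 kb, stood higher in both BxPC3 replicates, at 57.8 and 61.4, than in both Panc327 replicates, at 42.5 and 43.2. A run of 5 on chromosome 11, 119925699 to 120040476, had medians of 74.0 and 75.2 in BxPC3 and 55.1 and 65.5 in Panc327, in 454.6 kb without SUIT2 peaks, and the SUIT2 background ratios of its window were 1.65 and 1.49. A compact run of 7 on chromosome 16, 11689077 to 11753886, filled most of an 80.2 kb stretch between SUIT2 peaks.

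**Figure D4:**
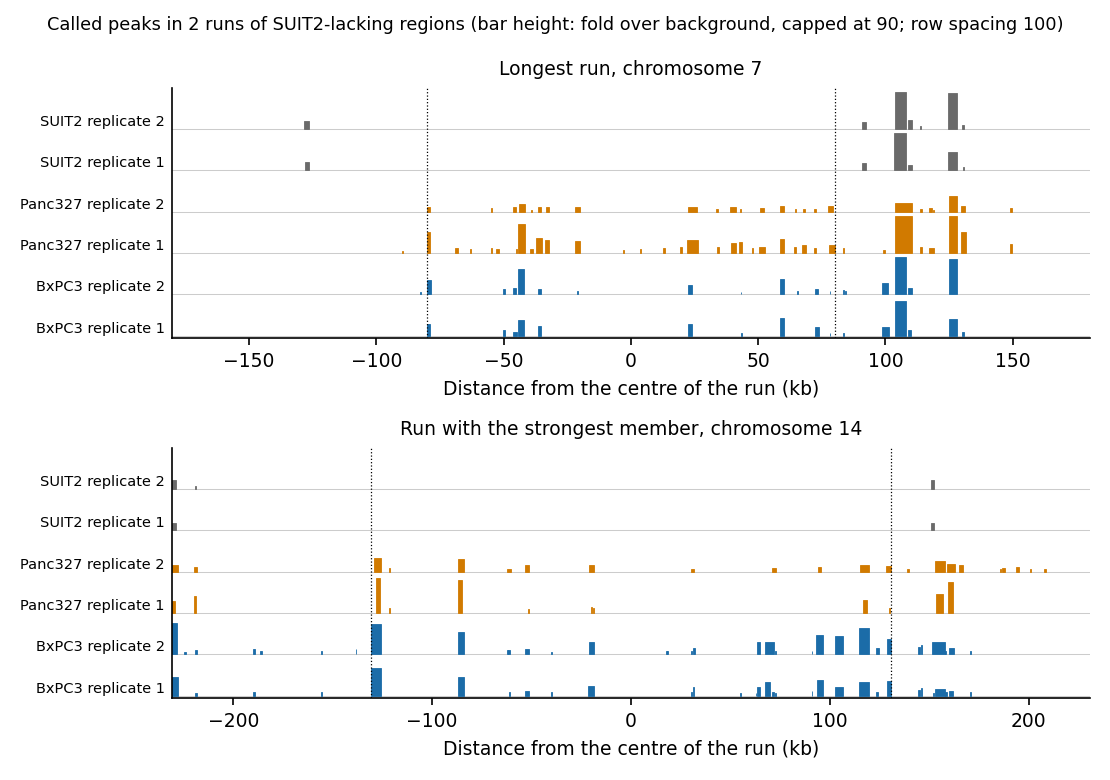
Called peaks of the 6 libraries around the longest run of SUIT2-lacking regions on chromosome 7 and the run with the strongest region on chromosome 14, by distance in kb from the centre of the run. Bar width is the width of the peak and bar height its fold over background, drawn up to 90 on a row spacing of 100; dotted lines mark the run, between which the SUIT2 rows are empty.

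By 1 Mb window, the members were spread over 1015 windows, 474 of which held 1 member, and 99 windows held at least 5. The most, 12, lay on chromosome 19 between 39000001 and 40000000, of 37 regions called in both BxPC3 and Panc327 there. Both SUIT2 lists had a peak in 38 regions of that window, which is the one with Panc327 background ratios of 4.37 and 4.70. The next windows had 11 members each, on chromosome 1 from 6000001 to 7000000 (of 26 regions) and on chromosome 17 from 4000001 to 5000000 (of 30). A further 4 windows tied at 10. On chromosome 9, from 95000001 to 96000000, the 10 were 58.8% of the 17 regions called in both lines. On chromosome 16, from 11000001 to 12000000, they were 10 of 20.

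Among chromosomes, the share of the regions called in both lines that SUIT2 lacked ran from 8.49% on X (32 of 377) to 20.9% on chromosome 18 (46 of 220), beside 14.8% over all. Chromosome 1 held the most members, 295 of 1647 regions, or 17.9%. Chromosomes 6 (11.7%) and 4 (11.9%) were the lowest autosomes, and chromosome 19, rich in members by number (173), stood near the overall share at 15.4%. The shares on chromosomes 18 and 21 rest on 46 and 25 members.

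**Figure D5:**
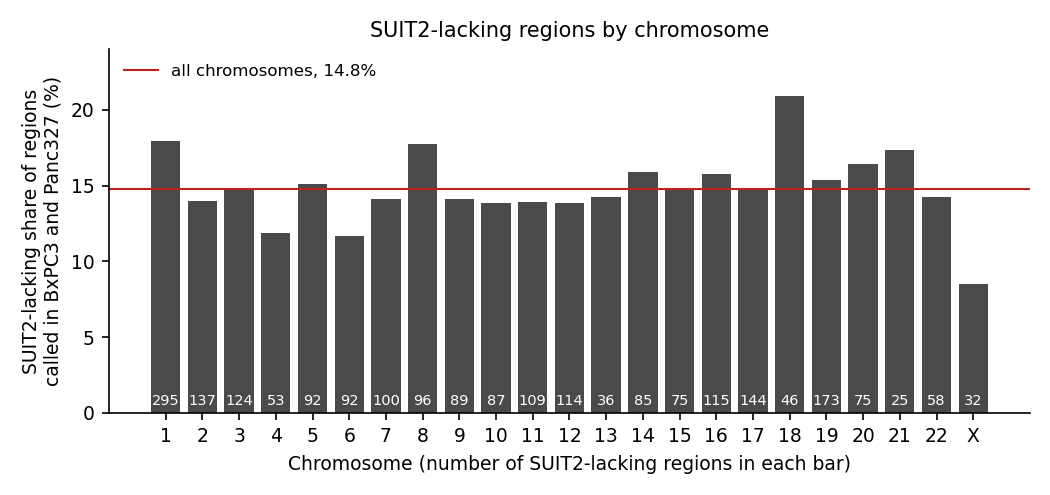
SUIT2-lacking share, in percent, of the regions called in both BxPC3 and Panc327 on each chromosome, with the number of SUIT2-lacking regions in each bar and the red line at 14.8% over all chromosomes. Chromosome 18 is highest at 20.9% and X lowest at 8.49%.

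Few members lay in wide windows of raised local background. Windows of 2 Mb with a background ratio of at least 2 in both libraries of a line held 63 members for Panc327 (2.80%), 1 for SUIT2 and 0 for BxPC3. Of all regions called in both BxPC3 and Panc327, 2.51% lay in such Panc327 windows. The background cannot fall below the genome-wide level in these lists, so DNA that SUIT2 has lost would not show in it. From the peak lists alone, absence of the DNA, absence of the mark and a mark under the calling threshold cannot be told apart for a SUIT2-lacking region. The reads of the SUIT2 input libraries were not examined here.

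At the edge of the rule, the weakest member peaks had a −log10 q of 8.68 and 9.52 in the BxPC3 replicates and 8.35 and 8.57 in Panc327. Of the regions called in all 4 BxPC3 and Panc327 lists, 58 were called in SUIT2 replicate 1 alone and 137 in SUIT2 replicate 2 alone, and so were excluded. Those SUIT2 peaks were weak, with a median −log10 q of 12.8 and 15.9 and a median of 27.5 and 30 reads. Regions with no SUIT2 peak that missed only 1 of the other lists numbered 249 for BxPC3 replicate 1, 49 for BxPC3 replicate 2, 1695 for Panc327 replicate 1 and 348 for Panc327 replicate 2. Panc327 replicate 1 thus set the number of members more than any other library did.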

How the data were processed

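H3K27ac ChIP-seq was measured in 6 libraries of 3 lines. The submitters' processing notes name hg19, Bowtie 1.1.1, bcl2fastq 1.8.4 and MACS2. The settings of MACS2 are not given in the sources used here. There is 1 deposited peak list per library. The deposited fold (the ratio of the pile-up to its background), −log10 p and −log10 q are the authors' per-peak values. The deposited score column was not used, and the deposited summit offsets gave summit positions. Lists were merged at 1 bp or more of overlap with Python 3.11.15, pandas 2.3.3, numpy 2.4.6 and scipy 1.17.1, and bedtools 2.31.1 gave the same 58994 regions. At most 3 peaks per list, on other chromosomes, were left out.

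Reads at a summit and the local background were solved from fold and p, on the assumption of a fold pseudocount of 1 and Poisson p-values. In each list 99.9 to 100% of the −log10 p values were recovered within 0.001, with a fitted pile-up scale of 0.752 and 0.652 in BxPC3. The merging and this step were tested on simulated data. Background in a 2 Mb window is the median ratio over at least 8 peaks.

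No test was made: the members were chosen by the peak calls, and a comparison of 2 libraries with 2 cannot reach an exact permutation p below 0.333. The rule, lists and tests were chosen with earlier results of these data known. Named regions are the 10 with the highest minimum percentile over the 4 lists, the 5 with the most bases in all 4 lists and the 1 Mb windows with the most members; runs, isolated regions and chromosomes were added afterwards. The planned gene lists, cell type markers, start windows, motifs and sequences need hg19 annotation, which was not used here.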

Additional observations from a re-analysis of the deposited data

How the results depend on the processing

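The count of 2252 SUIT2-lacking regions stayed within 1.5 times under 11 of 13 alternatives. A like count was not always the same set. With peaks of −log10 q of at least 20 there were 1705 regions, and 1531 of the members (68.0%) were kept. With equal numbers of peaks from each list there were 1946, and 1854 of the members (82.3%) were kept. It was 704 when the peaks of each list had to cover at least 50% of the region, and leaving out 1 library at a time gave 2311 to 3962, the highest without Panc327 replicate 1. Counts with a library left out are higher by construction, since fewer lists have to meet the rule. The median width of 1967 bp became 2200 bp with peaks of −log10 q of at least 20, 2098 bp with all lists cut to their 27776 best peaks, 1760 bp with 50% cover, 2153.5 bp with peaks up to 1 kb apart merged, and 1593 to 1967 bp with 1 library left out. It was 2216 bp with the stricter threshold on BxPC3 and Panc327 alone, an alternative added after the data were seen, which left 1531 regions. The median distance to SUIT2 peaks of 17459.5 bp became 19634 bp at the stricter threshold, 18888.5 bp with equal numbers of peaks and 19163 bp with merging up to 1 kb, and was 17192 to 18815.5 bp with 1 library left out. Without windows of raised local background 2188 regions remained, 97.2% of the members. Of the 18 regions named singly, 10 were kept under all 13 alternatives. The 8 others were each lost under 1 of them: 6 with 50% cover, and the regions on chromosome 19 without windows of raised local background. No paired analysis was possible because no result comes from a test. Transcript start shares and gene counts were not run, since they need hg19 gene positions. The calls of Panc327 replicate 1 limit which Panc327 regions could be counted, and the part of its depth in this was not tested.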
